A study of Homo sapiens with 26 samples.

Results

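The cytoplasmic actins ACTB and ACTG1, the actin-binding contractile genes TAGLN, TPM1, TPM2, MYL9, CNN1 and CNN2, the adhesion gene VCL and the transcription factor gene SRF were followed in U2OS cells held in acidic or neutral medium. These 10 genes, of 19704 in the deposited table, were chosen by name with their difference between the media in these same libraries already known. Their values at pH 6.3 against pH 7.4 are therefore given as a description, with no test. Each member was found on 1 row of the table. Values are FPKM, fragments per kilobase of transcript and per M mapped fragments (M for mega). All 10 members passed the filter of 1 FPKM on the mean that left 11838 genes to test, and each averaged over 1 FPKM in both media.

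U2OS is an established human osteosarcoma line. The cells carried Arntl::dLUC, a luciferase reporter of the circadian clock. There were 26 libraries of polyadenylated RNA. The acidic group (pH 6.3) and the neutral group (pH 7.4) had 13 each, taken every 4 h between 4 and 52 h with a single library per medium and time. The media of both groups held 5% fetal bovine serum, dexamethasone at 0.1 µM (a synthetic glucocorticoid) and the buffers PIPES and HEPES at 25 mM each, and the sealed dishes stood in incubators without added CO2. Serum, glucocorticoid and the change of buffer were thus shared by both groups. Dishes of a first set served for 28 to 52 h and those of a second set, seeded a day later, for 4 to 24 h, so the time in medium and the plate set cannot be told apart where those windows are compared. Libraries of the same medium and time were not repeated. The SD and the p-values below are therefore over time points and mix change with time and noise.

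Actin exists as monomers and as filaments. The MRTF coactivators bind monomeric actin, and they enter the nucleus and join SRF, the serum response factor, when monomers are used up by filament growth. SRF binds a short DNA element called the CArG box, and its targets with MRTF include the actins, SM22 alpha, calponins, tropomyosins and vinculin, as well as SRF itself. The same factor works with ternary complex factors on a different group of targets, the immediate early genes such as FOS.

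The CArG box was searched for in the 250 bases before the RefSeq transcription starts (GRCh38.p14). The RefSeq table matched 7 of the 10 members (ACTG1, TPM1, TPM2, CNN1, CNN2, VCL and SRF), with 9 windows in all. Of these windows 3 held a box, 1 each for ACTG1, CNN2 and SRF. Among 35116 windows of the same length 407 did (1.16%), and 11 held 2 or more (0.0313%). The box reads the same in form on both strands, so 1 search covers both. These 3 windows are shown because they are the members' windows that hold the binding element of SRF, and capitals mark each box. The ACTG1 window is chr17:81512800-81513049 (minus strand), with a box that starts 94 bases before the start. The CNN2 window is chr19:1026358-1026607 (plus strand), with a box at 89 bases. The SRF window is chr6:43171019-43171268 (plus strand), with 2 boxes at 30 and 10 bases. A match describes the letters only.
ACTG1: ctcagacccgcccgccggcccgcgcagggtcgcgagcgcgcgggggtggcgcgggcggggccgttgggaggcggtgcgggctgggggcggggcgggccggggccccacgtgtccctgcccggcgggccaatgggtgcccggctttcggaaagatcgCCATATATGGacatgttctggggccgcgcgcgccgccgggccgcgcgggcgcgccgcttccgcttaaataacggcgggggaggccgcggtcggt
CNN2: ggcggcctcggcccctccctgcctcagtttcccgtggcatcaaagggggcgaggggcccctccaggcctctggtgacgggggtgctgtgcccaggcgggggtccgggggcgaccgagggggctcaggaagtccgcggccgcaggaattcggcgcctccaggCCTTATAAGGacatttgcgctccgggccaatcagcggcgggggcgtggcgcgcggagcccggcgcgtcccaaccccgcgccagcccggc
SRF: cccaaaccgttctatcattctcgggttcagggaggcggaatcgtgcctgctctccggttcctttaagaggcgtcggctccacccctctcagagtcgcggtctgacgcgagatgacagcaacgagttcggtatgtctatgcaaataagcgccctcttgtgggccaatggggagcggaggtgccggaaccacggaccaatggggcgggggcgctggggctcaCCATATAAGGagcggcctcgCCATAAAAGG

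Some libraries stood apart from the rest in ways that touch these genes. The estimated depth was 20.1 to 36.1 M fragments in 24 libraries. It was lower in the pH 6.3 library of 8 h (11.4 M) and the pH 7.4 library of 12 h (9.85 M). The correlation across genes of a library's deviation with transcript GC content was 0.576 in the pH 6.3 library at 20 h. In the pH 7.4 libraries it was 0.65 at 28 h, -0.549 at 44 h and -0.638 at 48 h, against -0.313 to 0.266 in the other libraries. Transcripts of 8 members had a GC content above 56.2%, the upper quartile of the tested genes. The exceptions were TPM1 (49.5%) and VCL (48.1%). Values without those 6 time points, and after a correction for GC content, are given where they matter. Of the markers of muscle, 0 of 10 averaged 1 FPKM or more over all 26 libraries. ACTC1 averaged 1.04 FPKM at pH 6.3 and 0.686 FPKM at pH 7.4. The summed level of the 10 muscle markers was 1.68 to 3.21 FPKM at pH 6.3 and 1.31 to 4.55 FPKM at pH 7.4. Of the mesenchymal and bone markers 7 of 8 averaged at least 1 FPKM, with sums of 2533 to 3986 FPKM at pH 6.3 and 3798 to 5841 FPKM at pH 7.4. Of those 7 genes 0 rose and 3 fell at pH 6.3 in limma's test of the acid effect described below, namely FN1 (-0.90, adjusted p = 1.15e-07), THY1 (-1.21, adjusted p = 0.000474) and COL1A1 (-0.78, adjusted p = 0.0102). Of all tested genes 22.4% rose and 37.3% fell, so the share of lower genes is near the background. VIM, which encodes vimentin, averaged 649 ± 144 FPKM at pH 6.3 against 602 ± 34.3 FPKM at pH 7.4 (SD, n = 13) and did not pass (adjusted p = 0.447). Of the leukocyte and endothelial markers 1 of 8 averaged 1 FPKM or more over all 26 libraries (LCP1). PECAM1 averaged 0.458 FPKM at pH 6.3 and 1.03 FPKM at pH 7.4. The sums of these 8 markers were 6.74 to 18.6 FPKM at pH 6.3 and 13.9 to 41.3 FPKM at pH 7.4. In the same test LCP1 fell at pH 6.3 (-1.27, adjusted p = 5.09e-05). Of the epithelial markers 4 of 8 reached 1 FPKM, with sums of 149 to 326 FPKM at pH 6.3 and 159 to 315 FPKM at pH 7.4. Of those 4 genes 0 rose and 3 fell (EPCAM, KRT8 and CLDN4), beside the same 22.4% and 37.3% of all genes. CLDN4 passed the filter on the mean only through its neutral libraries, so its call is a description only. The part of these marker levels in the results was not tested.

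ACTB (chr7:5527147-5563784, minus strand, GRCh38 in GENCODE 29) encodes beta-actin, and it was the member with the highest level, 26th of all genes by mean FPKM. At pH 6.3 it had a lowest value of 703, a median of 1256 and a highest value of 3029 FPKM, against 2105, 2399 and 3245 FPKM at pH 7.4. The acidic library was the lower one at 13 of 13 times. At 4 h the values were close, with 3029 FPKM at pH 6.3 against 3245 FPKM at pH 7.4. From 16 h on, every pH 6.3 value (at most 1670.07 FPKM) lay below the lowest pH 7.4 value of the whole course. By 52 h ACTB had 703 FPKM at pH 6.3, against 2399 FPKM at pH 7.4. That was 23.2% of the 4 h value at pH 6.3 and 73.9% of it at pH 7.4. The difference in log2(FPKM + 1), pH 6.3 minus pH 7.4, averaged -0.17 over 4 to 12 h, -0.81 over 16 to 24 h, -0.95 over 28 to 36 h and -1.38 over 40 to 52 h. From 40 h on it was below -1 at every time. Its mean over the course was -0.87 (SD of the 13 differences 0.49). In bulk RNA, fewer cells of a type and less RNA per cell cannot be told apart, and FPKM give shares of a library, not amounts per cell.

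**Figure D1:**
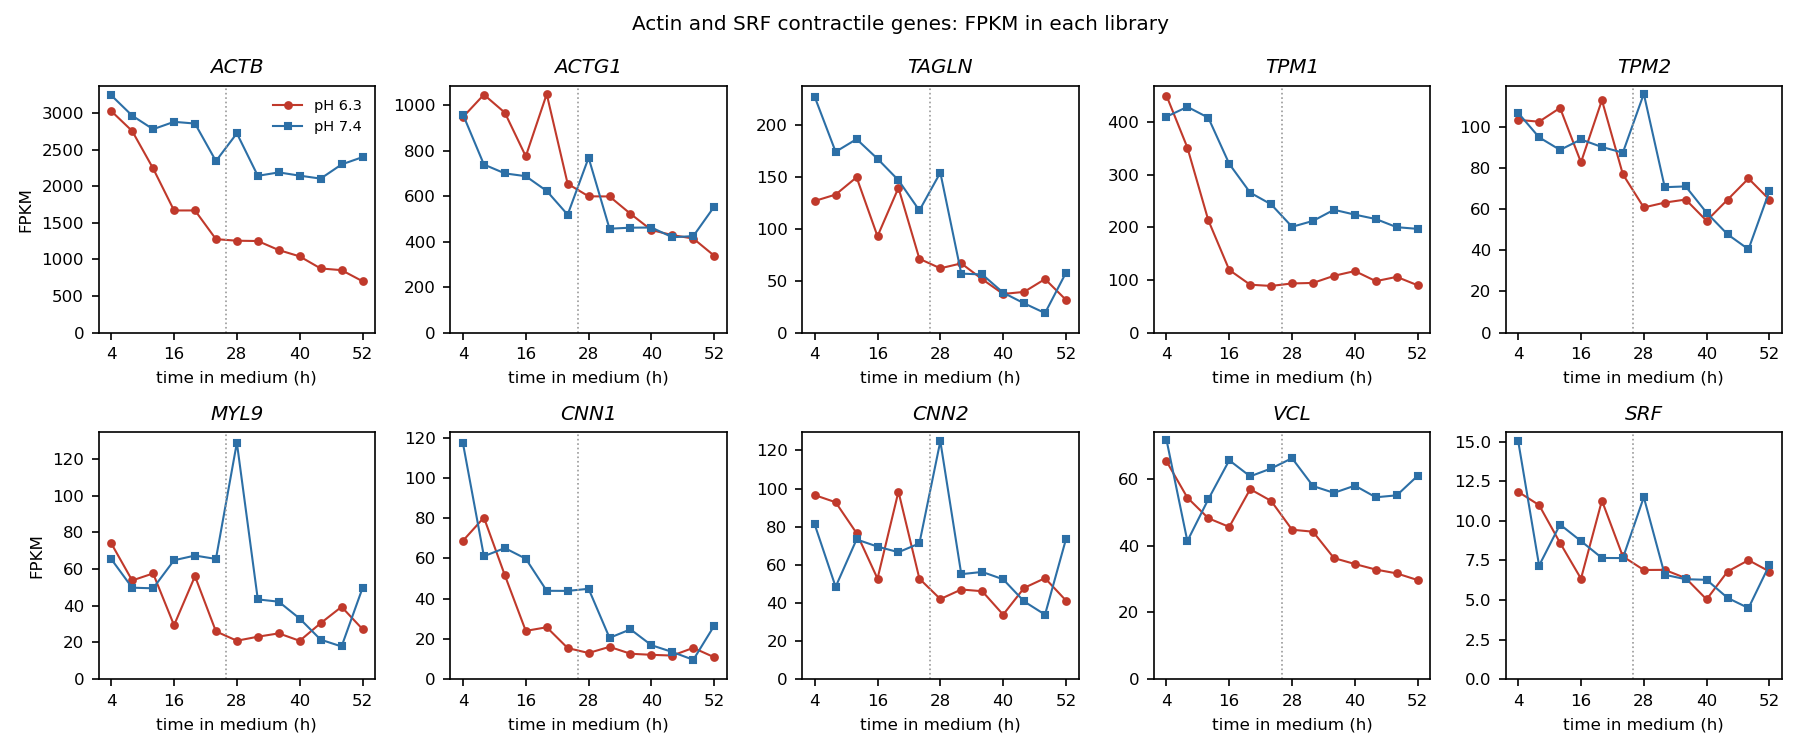
FPKM of the 10 members (vertical axes, each starting at 0) against hours in medium (horizontal axes), with 1 library per point, pH 6.3 in red and pH 7.4 in blue, and a dotted line between the plate sets. The last ACTB points are 703 FPKM (pH 6.3) and 2399 FPKM (pH 7.4), those of TPM2 64.6 FPKM (pH 6.3) and 68.8 FPKM (pH 7.4).

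ACTG1 (chr17:81509971-81523847, minus strand) encodes gamma-actin, the other cytoplasmic actin, whose protein differs from beta-actin in a few residues at its start. It ranged from 338 to 1049.5 FPKM at pH 6.3 with a median of 600 FPKM (599.64), against 420 to 960 FPKM (419.65 to 959.68) at pH 7.4 with a median of 554 FPKM. The groups overlapped over most of their ranges. ACTG1 was higher at pH 6.3 at 8 times and lower at 5. At 20 h it had 1049.5 FPKM at pH 6.3 against 623 FPKM at pH 7.4. At 52 h it had 338 FPKM at pH 6.3 against 554 FPKM at pH 7.4. The mean difference was 0.13 (SD 0.39), with 0.37 over 4 to 24 h and -0.08 over 28 to 52 h. The sign of the mean turned with quantile normalization, to -0.07. The mean was 0.04 without the 6 time points, 0.08 without the 20 h time point and 0.20 without the 52 h time point. GENCODE names 10 pseudogenes of ACTB and 20 of ACTG1, so the assignment of reads between these near-identical copies is uncertain, also between the actins themselves.

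Both actins were also set against each other inside each library. The ratio of ACTB to ACTG1 had a median of 2.10 (range 1.59 to 3.19) at pH 6.3 and 4.52 (range 3.38 to 5.42) at pH 7.4, and the groups did not overlap. At 4 h it was 3.19 at pH 6.3 and 3.38 at pH 7.4, and at 20 h it was 1.59 at pH 6.3 and 4.59 at pH 7.4. The acidic ratio then lay between 1.95 and 2.31 from 24 h to 52 h. Together ACTB and ACTG1 held 0.568% of all FPKM at pH 6.3 and 0.611% at pH 7.4 at 4 h. At 52 h they held 0.171% at pH 6.3 and 0.469% at pH 7.4.

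TPM1 and TPM2 encode tropomyosins, coiled-coil proteins that lie along actin filaments and govern the access of myosin. TPM1 (chr15:63042632-63071915, plus strand) had a lowest value of 88.6, a median of 106 and a highest value of 450.1 FPKM at pH 6.3, against 197, 233 and 429 FPKM at pH 7.4. It was higher at pH 6.3 at 4 h, with 450.1 FPKM against 409.9 FPKM at pH 7.4, and lower at pH 6.3 at the other 12 times. At 16 h TPM1 had 119 FPKM at pH 6.3, against 320.3 FPKM at pH 7.4. From that time on every acidic value lay below the lowest neutral one. It stayed between 88.6 and 119 FPKM at pH 6.3 from 16 h to 52 h, while at pH 7.4 it ran from 320.3 FPKM at 16 h to 197 FPKM at 52 h. The difference was -0.36 over 4 to 12 h, -1.47 over 16 to 24 h, -1.12 over 28 to 36 h and -1.03 over 40 to 52 h, with a mean of -0.997 (SD 0.46). The widest window was thus 16 to 24 h for TPM1 and 40 to 52 h for ACTB.

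TPM2 (chr9:35681992-35690121, minus strand) had nearly equal means in both media. It ran from 54.3 to 113 FPKM at pH 6.3 (median 74.8) and from 40.4 to 116 FPKM at pH 7.4 (median 87.4), with overlapping groups. It averaged 79.5 ± 20.5 FPKM at pH 6.3 and 79.6 ± 22.4 FPKM at pH 7.4 (SD, n = 13). The mean difference was 0.02 (SD 0.42), and its sign turned with quantile normalization (-0.0086) and without the 6 time points (-0.13). Leaving out single time points gave -0.055 to 0.095. The widest differences were at 28 h (-0.92) and 48 h (0.87), 2 of the times with a neutral library that leaned on GC content. After the correction for GC content the SD of the 13 differences was 0.148 and the values ran from -0.14 to 0.43. The ratio of TPM1 to TPM2 had a median of 1.51 (range 0.805 to 4.36) at pH 6.3 and 3.42 (range 1.73 to 4.95) at pH 7.4. The acidic ratio was the lower one at 12 times, all but 4 h, with overlapping groups.

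**Figure D2:**
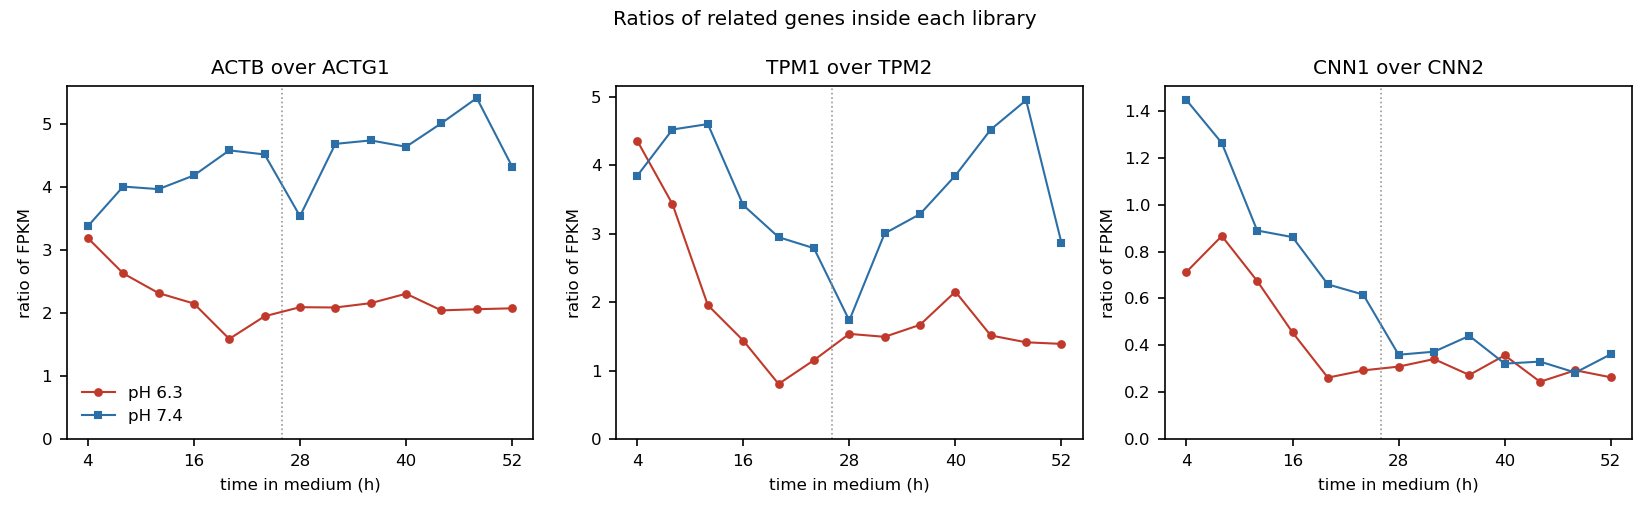
Ratio of FPKM inside each library (vertical axes, starting at 0) for ACTB over ACTG1, TPM1 over TPM2 and CNN1 over CNN2 against hours in medium, pH 6.3 in red and pH 7.4 in blue, with a dotted line between the plate sets. For ACTB over ACTG1 the acidic points (1.59 to 3.19) lie below all neutral points (3.38 to 5.42).

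TAGLN (chr11:117199321-117204782, plus strand) encodes transgelin or SM22 alpha, an actin-binding protein and a classic SRF target of smooth muscle. It had a lowest value of 31.5, a median of 66.6 and a highest value of 149 FPKM at pH 6.3, against 18.8, 117 and 227 FPKM at pH 7.4. The groups overlapped, and both ended low. The 52 h value was 24.9% of the 4 h value at pH 6.3 and 25.4% of it at pH 7.4. TAGLN was lower at pH 6.3 at all 6 times of 4 to 24 h (mean difference -0.53) and at 4 of 7 times of 28 to 52 h (-0.03). At 48 h it was higher at pH 6.3, with 51.5 FPKM against 18.8 FPKM at pH 7.4. At 52 h the order was the other one, with 31.5 FPKM at pH 6.3 and 57.6 FPKM at pH 7.4. The mean difference was -0.26 (SD 0.71), -0.46 without the 6 time points and -0.40 without the 48 h time point alone.

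CNN1 and CNN2 encode calponins, which bind actin and restrain the myosin ATPase. CNN1 (chr19:11538717-11550323, plus strand), the smooth muscle form, had a lowest value of 10.9, a median of 15.5 and a highest value of 80.4 FPKM at pH 6.3, against 9.59, 43.9 and 117 FPKM at pH 7.4. It was lower at pH 6.3 at 11 times, and the groups overlapped. The acidic values reached 24.0 FPKM at 16 h and stayed at 10.9 to 25.8 FPKM afterwards. The neutral values came down later, to 20.5 FPKM at 32 h. The difference was -1.16 over 16 to 24 h and -0.30 over 40 to 52 h, with a mean of -0.64 (SD 0.70). Without the 6 time points the mean of CNN1 was -0.92, and after the correction for GC content it was -0.61. CNN2 (chr19:1026581-1039068, plus strand), the form found in many cell types, had medians of 52.7 FPKM at pH 6.3 (33.8 to 98.4) and 66.6 FPKM at pH 7.4 (33.8 to 125), with almost the same range. It was lower at pH 6.3 at 7 times and higher at 6, with a mean difference of -0.13 (SD 0.67). That mean was -0.36 without the 6 time points. Left out singly, the 8 h time point gave -0.22, the 28 h one -0.0091 and the 52 h one -0.07. GENCODE names 11 pseudogenes of CNN2, so its reads may be divided among copies. The ratio of CNN1 to CNN2 had a median of 0.309 at pH 6.3 and 0.440 at pH 7.4 and was lower at pH 6.3 at 11 times.

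MYL9 (chr20:36541484-36551447, plus strand) encodes a regulatory light chain of myosin II, the motor that pulls on actin filaments. It had a lowest value of 20.9, a median of 29.4 and a highest value of 74.0 FPKM at pH 6.3, against 17.8, 49.6 and 129 FPKM at pH 7.4. The groups overlapped, and MYL9 was lower at pH 6.3 at 8 times and higher at 5. Both ends of the neutral range came from libraries that leaned on GC content, 129 FPKM at 28 h and 17.8 FPKM at 48 h. The differences at those times were -2.57 and 1.10. The mean was -0.48 (SD 0.94), and -0.48 with an SD of 0.544 after the correction for GC content. Without the 6 time points it was -0.76, and without the 28 h time point alone -0.31.

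VCL (chr10:73995193-74121363, plus strand) encodes vinculin, which ties actin filaments to the integrin adhesions. It had a lowest value of 29.7, a median of 44.9 and a highest value of 65.5 FPKM at pH 6.3, against 41.5, 58.1 and 72.0 FPKM at pH 7.4. From 12 h on the acidic library was the lower one at every time, and from 36 h on the pH 6.3 values (at most 36.3 FPKM) lay below the lowest neutral value. The difference widened over the course, with 0.03 over 4 to 12 h, -0.28 over 16 to 24 h, -0.51 over 28 to 36 h and -0.81 over 40 to 52 h. Its mean was -0.43 (SD 0.37), and -0.29 after the correction for GC content. VCL at pH 7.4 was 84.9% of its 4 h value at 52 h, against 45.4% at pH 6.3.

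SRF (chr6:43171299-43181507, plus strand), which encodes the factor itself, had the lowest level of the members. It ran from 5.04 to 11.8 FPKM at pH 6.3 (median 6.91) and from 4.49 to 15.1 FPKM at pH 7.4 (median 7.23), with overlapping groups. The means were 7.94 ± 2.13 FPKM at pH 6.3 and 7.97 ± 2.82 FPKM at pH 7.4 (SD, n = 13). SRF was lower at pH 6.3 at 6 times and higher at 7. The mean difference was 0.02 (SD 0.40) as deposited, 0.18 with quantile normalization and -0.14 without the 6 time points. Leaving out single time points gave -0.034 to 0.074.

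In both media the order of mean levels per length was ACTB, ACTG1, TPM1, TAGLN, TPM2, CNN2, VCL, MYL9, CNN1 and SRF. ACTB was above ACTG1, ACTG1 above TPM1 and CNN1 above SRF in all 13 libraries of each pH. TAGLN and TPM2 could not be ordered, since TAGLN was the higher one in 7 of 13 libraries at pH 6.3 and in 7 of 13 at pH 7.4.

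The mean differences of the members ran from -0.997 (TPM1) to 0.13 (ACTG1), beside a median of -0.12 over all tested genes. Over all tested genes, 59.7% passed the test of the same contrast (22.4% higher and 37.3% lower at pH 6.3). Because that contrast chose the members, nothing is read from these shares about them. Quantile normalization moved the median of all genes from -0.12 to -0.02. With it ACTB (-1.03), TPM1 (-1.07), CNN1 (-0.60), MYL9 (-0.47), VCL (-0.42), TAGLN (-0.29) and CNN2 (-0.15) stayed lower at pH 6.3.

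The number of members that were lower at pH 6.3 varied between times, beside the GC lean of the libraries. All 10 were lower at 28, 40 and 52 h, when 59.8%, 57% and 58.8% of all tested genes were lower. The median difference of genes above the upper quartile of GC content was -1 at 28 h. At 48 h it was 0.902 for those genes, and 4 members were lower and 6 higher, when 47.9% of all tested genes were lower. After the correction for GC content, 8 members were lower at both 28 and 52 h and 7 at both 40 and 48 h. The share of all genes lower on that scale was not counted. Their median difference on it was 0.012 at 28 h, -0.0034 at 40 h, -0.025 at 48 h and -0.018 at 52 h. The correction reduced the SD of the 13 differences of MYL9 to 0.544 (from 0.938 as deposited), of TAGLN to 0.442 (from 0.706) and of CNN1 to 0.484 (from 0.695). It widened those of ACTB to 0.686 (from 0.491), of ACTG1 to 0.466 (from 0.385) and of VCL to 0.387 (from 0.373). After the correction the difference of ACTB was -0.21 at 28 h, -0.92 at 40 h, -2.28 at 48 h and -1.60 at 52 h. The mean differences of ACTB (-0.84) and TPM1 (-0.87) after it were close to the deposited ones.

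**Figure D3:**
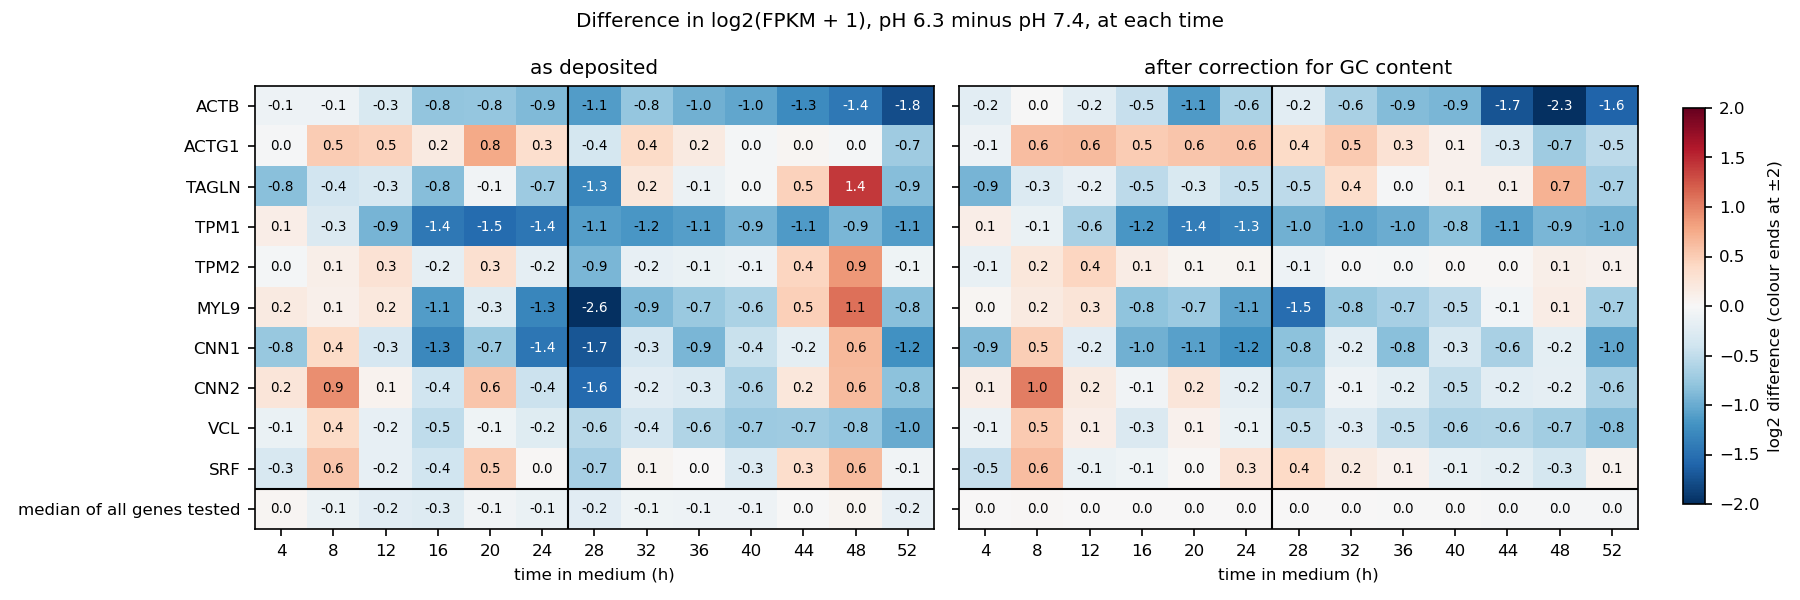
Difference in log2(FPKM + 1), pH 6.3 minus pH 7.4, of each member (rows) at each time (columns), as deposited on the left and after a correction for GC content on the right, with blue for lower and red for higher at pH 6.3 and colours ending at 2. The rows of ACTB, TPM1 and VCL stay blue on the left from 12 h on, whereas TPM2 is near 0 at most times on the right.

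The course in neutral medium alone was tested over the 13 libraries at pH 7.4. Neutral values are part of the difference that was known when the members were chosen. The test is therefore not fully independent of that choice. By limma with Benjamini-Hochberg adjustment over 11838 genes, 7 of the 10 members fell with time and 0 rose. Of all tested genes 9.24% fell and 11.9% rose (21.1% in either direction). TAGLN fell by 1.59 per 24 h on the log2(FPKM + 1) scale (SE 0.211, adjusted p = 0.000181) and CNN1 by 1.39 (SE 0.181, adjusted p = 0.000169). TPM1 fell by 0.58 (adjusted p = 0.000312), TPM2 by 0.54 (adjusted p = 0.00458) and ACTG1 by 0.48 (adjusted p = 0.00291) per 24 h. SRF fell by 0.46 per 24 h (adjusted p = 0.0208) and ACTB by 0.27 (adjusted p = 0.00352). The smooth muscle forms TAGLN and CNN1 thus had the steepest slopes of the members, and ACTB the shallowest of those that passed.

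The slopes of MYL9 (-0.63 per 24 h, SE 0.246, adjusted p = 0.0843), CNN2 (-0.29, SE 0.178, adjusted p = 0.264) and VCL (-0.01, SE 0.0844, adjusted p = 0.963) did not pass in limma. With the plate set as a covariate 0 of the 10 members passed, with adjusted p from 0.21 (TAGLN) to 0.995 (VCL), and 4 of all genes did. The slopes inside the plate sets were -1.46 for TAGLN, -1.23 for CNN1 and -0.45 for TPM1 per 24 h. The call on ACTB was lost with quantile normalization (-0.08, adjusted p = 0.208) and with the GC correction (-0.12, adjusted p = 0.476). The call on SRF was lost with the GC correction (adjusted p = 0.0756), without the 6 libraries (adjusted p = 0.110), and on leaving out the 4 h library (adjusted p = 0.077), the 44 h library (0.051) or the 48 h library (0.0639). MYL9 passed with the GC correction (adjusted p = 0.0082) and without the 28 h library (0.0212) or the 52 h library (0.04).

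**Figure D4:**
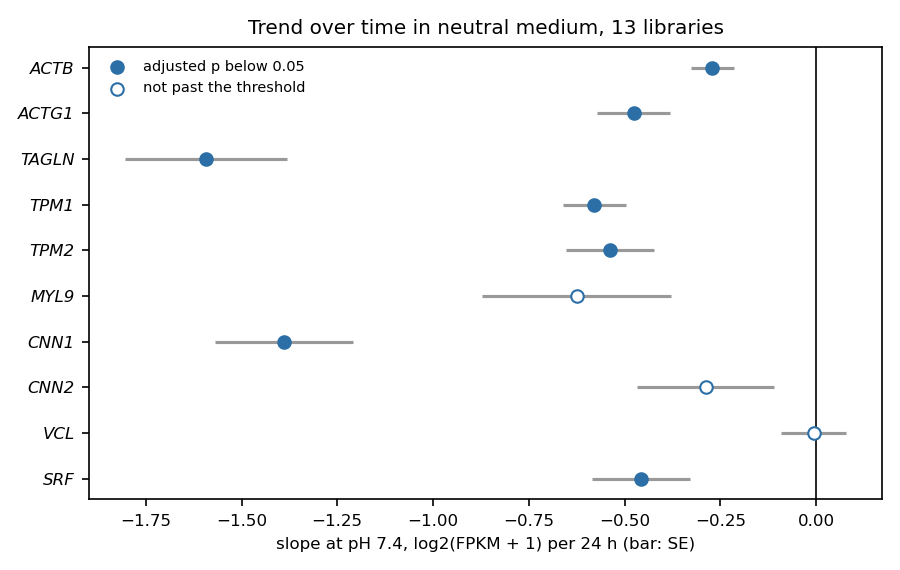
Slope of each member in the 13 neutral libraries in log2(FPKM + 1) per 24 h (horizontal axis), with the SE as a bar, filled where the adjusted p was below 0.05. TAGLN (-1.59) and CNN1 (-1.39) lie farthest from 0, and VCL (-0.01) lies at it.

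A 24 h rhythm at pH 7.4 was found in 0 of the 10 members by limma (adjusted p = 0.999 for each). At an unadjusted p under 0.05 the count was also 0, since the unadjusted p ran from 0.128 (ACTG1) to 0.852 (TPM1). Of all tested genes 5 passed (0.0422%). The fitted amplitudes of the members were 0.07 (ACTB) to 0.27 (MYL9) on the log2 scale.

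The genes whose 13 differences lay closest to those of ACTB, by root mean square distance over 9303 genes that averaged 5 FPKM or more in either medium, were TTL (0.213), CHMP3 (0.214) and PM20D2 (0.22). The median distance was 1.04. TTL encodes the ligase that adds tyrosine to tubulin, and CHMP3 a subunit of the ESCRT-III complex. Among the members TPM1 (0.453) and VCL (0.496) came nearest to ACTB, at ranks 452 and 628, and ACTG1 lay at 1.06. Nearest to TAGLN were KEAP1 (0.282), GTF2H4 (0.312) and CSRP1 (0.337), against a median of 0.901. CSRP1 encodes a LIM domain protein of the actin cytoskeleton. Near to SRF were OTUD7B (0.194) and PSMF1 (0.202), against a median of 0.712, and TPM2 (0.254) was at rank 8. These distances share the 26 libraries, with their GC lean, and carry no test.

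Other genes of the pathway were taken from lists and tested for the acid effect, blocked by time point. Of 28 other contractile and MRTF/SRF target genes, 2 rose and 10 fell at pH 6.3 and 16 did not pass (limma, adjusted over 11838 genes), beside 22.4% and 37.3% of all tested genes. That share of lower genes is near the background, and the median of the list was -0.16 against -0.12 over all genes. SVIL, which encodes the actin- and myosin-binding supervillin, averaged 25.7 ± 10.2 FPKM at pH 6.3 and 61.2 ± 15.2 FPKM at pH 7.4 (log2 difference -1.26, SE 0.158, adjusted p = 7.46e-06, lower at 13 of 13 times). MYLK, the kinase of the myosin light chains, averaged 24.4 ± 8.82 FPKM at pH 6.3 and 56.1 ± 12.9 FPKM at pH 7.4 (-1.20, adjusted p = 2.1e-05, lower at 11 of 13 times). Both other tropomyosin genes fell. TPM3 averaged 155 ± 30.8 FPKM at pH 6.3, against 208 ± 14.2 FPKM at pH 7.4 (-0.44, adjusted p = 3.81e-05), and TPM4 averaged 269.8 ± 71.8 FPKM at pH 6.3 against 328 ± 40.1 FPKM at pH 7.4 (-0.32, adjusted p = 0.0124, but 0.134 after the GC correction).

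CNN3, the acidic calponin, averaged 338 ± 194 FPKM at pH 6.3 and 447 ± 83.8 FPKM at pH 7.4 (-0.58, adjusted p = 0.0121 by limma, 0.0501 after the GC correction). ACTA2, the smooth muscle actin, had 3.54 ± 0.803 FPKM at pH 6.3, against 3.72 ± 0.891 FPKM at pH 7.4, without passing (-0.06, adjusted p = 0.651), with a sign that turned under quantile normalization (0.15) and the GC correction (0.06). Of the pair that rose, FLNC (filamin C) averaged 10.7 ± 6.16 FPKM at pH 6.3 and 6.76 ± 5.68 FPKM at pH 7.4 (0.72, adjusted p = 0.0281). ACTN1 (alpha-actinin 1, which bundles actin filaments) averaged 195 ± 38.0 FPKM at pH 6.3 and 159 ± 43.0 FPKM at pH 7.4 (0.32, adjusted p = 0.0438). Both calls were lost without the 6 time points (adjusted p = 0.16 for FLNC and 0.348 for ACTN1), and that on ACTN1 also with quantile normalization (0.107). Leaving out single time points also ended them, with adjusted p of 0.0518 to 0.0623 for FLNC (12, 20, 44, 48 or 52 h) and 0.0503 to 0.0928 for ACTN1 (8, 12, 16, 20, 32, 36, 44 or 48 h). The heavy chains of non-muscle myosin II, MYH9 and MYH10, were picked out after their values were seen. MYH9 averaged 125 ± 57.9 FPKM at pH 6.3 and 222 ± 23.5 FPKM at pH 7.4 (-0.94, adjusted p = 8.9e-05), and MYH10 averaged 17.5 ± 5.63 FPKM at pH 6.3 against 33.1 ± 4.69 FPKM at pH 7.4 (-0.93, adjusted p = 3.88e-06). The light chain genes of the list did not go 1 way. MYL6 fell (-0.56, adjusted p = 0.00114 by limma), but MYL12A (0.05, adjusted p = 0.731) and MYL12B (0.07, adjusted p = 0.539) did not pass. Over 4 to 24 h MYL12A (0.44, adjusted p = 0.015) and MYL12B (0.31, adjusted p = 0.0235) passed as higher.

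In the same list the calls were also counted by window. Over 4 to 24 h, 4 genes rose and 4 fell, beside 8.57% and 18.1% of all genes (26.7% in either direction). Over 28 to 52 h, 0 rose and 12 fell, beside 27% and 36.4% (63.3% in either direction). The later difference was lower than the earlier one in 8 of the 28 genes and higher in 0, by the interaction of pH and plate set, beside 6.56% and 10.5% of all genes (17.1% in either direction). Without the 6 time points 0 genes rose and 16 fell, beside 19.6% and 33.5% of all genes. With quantile normalization 3 rose and 10 fell, beside 28.3% and 30.5% of all genes, and with the GC correction 6 rose and 9 fell, beside 31.6% and 32.6%.

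Of the cofactors of SRF and the small GTPase pathway that signals to actin, 20 of 21 genes were tested (MYOCD lay below 1 FPKM), of which 5 rose, 7 fell and 8 did not pass, with a median of 0.03 against -0.12 over all genes. These shares are near the background of 22.4% higher and 37.3% lower. Both MRTF genes were among those that fell. MKL2, which encodes MRTF-B, averaged 7.15 ± 1.81 FPKM at pH 6.3 and 17.4 ± 3.10 FPKM at pH 7.4 (-1.18, SE 0.135, adjusted p = 3.33e-06 by limma, lower at 12 of 13 times). MKL1, which encodes MRTF-A, averaged 8.29 ± 2.39 FPKM at pH 6.3 and 11.7 ± 4.25 FPKM at pH 7.4 (-0.42, SE 0.132, adjusted p = 0.011, lower at 11 times). ELK4, a ternary complex factor, rose, with 20.5 ± 3.397 FPKM at pH 6.3 and 13.6 ± 1.87 FPKM at pH 7.4 (0.56, adjusted p = 0.000128). LIMK1, a kinase that inactivates cofilin, fell, with 10.9 ± 5.45 FPKM at pH 6.3 and 22.6 ± 13.7 FPKM at pH 7.4 (-0.95, adjusted p = 0.00369). ARHGEF2, an activator of RhoA, rose, with 47.6 ± 10.7 FPKM at pH 6.3 and 32.9 ± 8.82 FPKM at pH 7.4 (0.54, adjusted p = 0.00849, but 0.135 without the 6 time points).

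The GTPase gene RHOA did not pass. It averaged 344 ± 42.1 FPKM at pH 6.3 and 363 ± 28.7 FPKM at pH 7.4 (-0.08, adjusted p = 0.148 by limma). With quantile normalization it passed (adjusted p = 0.00321), and after the GC correction its sign turned (0.03). RHOB, an inducible relative, averaged 26.3 ± 13.5 FPKM at pH 6.3 and 21.2 ± 11.02 FPKM at pH 7.4 (0.29, adjusted p = 0.0437). That call was lost without the block (adjusted p = 0.317) and on leaving out any of 9 single time points (0.0582 to 0.0982), namely 4, 16, 20, 24, 32, 40, 44, 48 and 52 h.

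**Figure D5:**
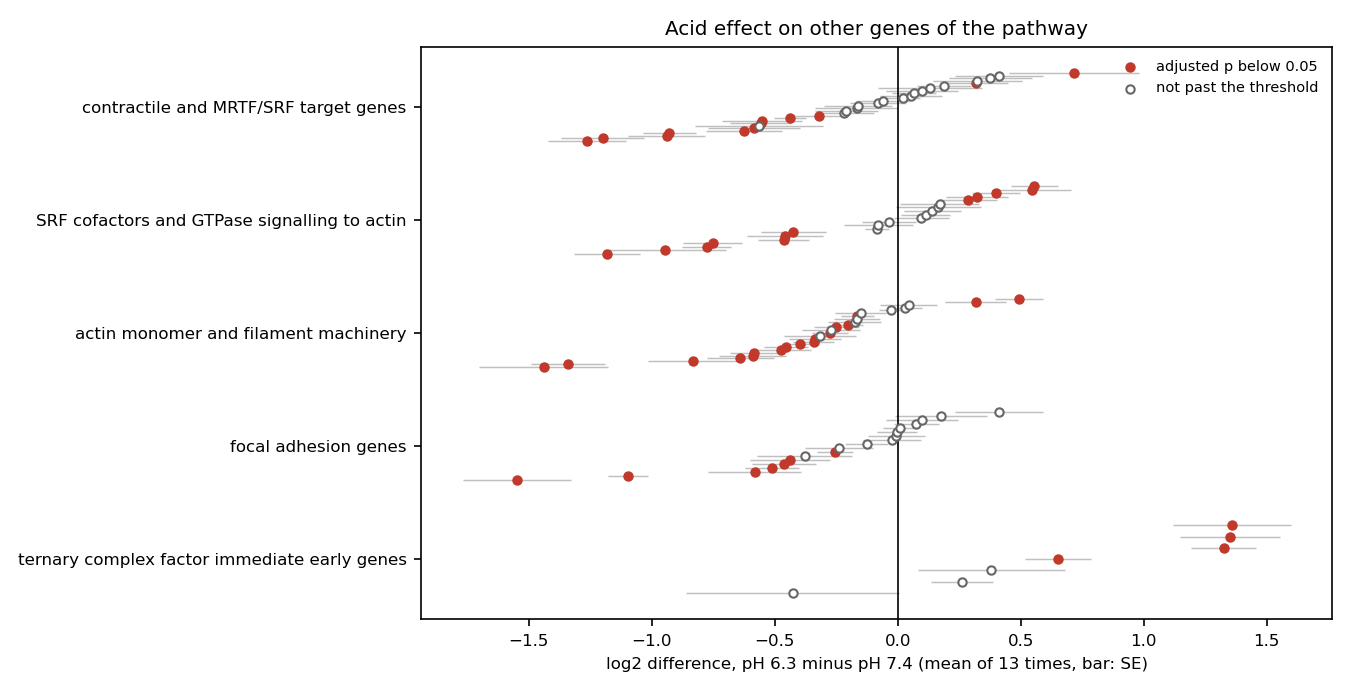
Mean log2 difference, pH 6.3 minus pH 7.4, of 13 times (horizontal axis) with the SE as a bar for the tested genes of 5 lists (vertical axis), filled red where the adjusted p was below 0.05. Of the actin machinery 15 of 25 genes are filled on the left, and of the immediate early genes 4 of 7 are filled on the right.

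Of 25 genes of the actin monomer and filament machinery, 2 rose, 15 fell and 8 did not pass (limma), beside 22.4% and 37.3% of all genes. The list's median was -0.27, against -0.12 over all genes. GSN, which encodes the filament-severing gelsolin, averaged 12.6 ± 6.12 FPKM at pH 6.3 and 35.5 ± 15.9 FPKM at pH 7.4 (-1.44, SE 0.262, adjusted p = 0.000207, lower at 12 of 13 times). ARPC4, a subunit of the ARP2/3 complex that nucleates branches, averaged 59.5 ± 27.4 FPKM at pH 6.3 and 142 ± 10.96 FPKM at pH 7.4 (-1.34, adjusted p = 2.9e-06). ARPC3, another subunit, went the other way, with 311 ± 84.9 FPKM at pH 6.3 and 241 ± 23.8 FPKM at pH 7.4 (0.32, adjusted p = 0.036). That call was lost with quantile normalization (adjusted p = 0.115) and on leaving out any of the 7 time points from 28 to 52 h (0.0635 to 0.0788). WASL, an activator of the complex, rose, with 19.2 ± 2.01 FPKM at pH 6.3 and 13.5 ± 2.56 FPKM at pH 7.4 (0.49, adjusted p = 0.000429). CFL1, which encodes the filament-severing cofilin, averaged 557 ± 251 FPKM at pH 6.3 and 791 ± 185 FPKM at pH 7.4 (-0.59, adjusted p = 0.00154). PFN1, which encodes the monomer-binding profilin, averaged 243 ± 78.3 FPKM at pH 6.3 and 299.7 ± 58.5 FPKM at pH 7.4 (-0.34, adjusted p = 0.0114). With quantile normalization 1 gene of the list rose and 18 fell, beside 28.3% and 30.5% of all genes. With the GC correction 3 rose and 11 fell, beside 31.6% and 32.6%.

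Of the focal adhesion genes that stand beside VCL, 18 of 19 were tested (TES lay below 1 FPKM). Of these 0 rose, 7 fell and 11 did not pass (limma), beside 22.4% and 37.3% of all genes, so the share of lower genes is near the background. The list's median was -0.18, against -0.12 over all genes. The integrin gene ITGAV averaged 72.7 ± 21.0 FPKM at pH 6.3 and 152 ± 20.2 FPKM at pH 7.4 (-1.10, SE 0.0804, adjusted p = 6.99e-08, lower at 13 of 13 times). TNS1, which encodes tensin, averaged 4.14 ± 2.20 FPKM at pH 6.3 and 13.5 ± 3.69 FPKM at pH 7.4 (-1.55, SE 0.22, adjusted p = 2.36e-05, lower at 12 times).

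Of the immediate early genes driven by SRF with ternary complex factors, 7 of 9 were tested (EGR2 and EGR3 lay below 1 FPKM). Of these 4 passed as higher, 0 as lower and 3 did not pass (limma), beside 22.4% and 37.3% of all genes. FOSB, 1 of the 4, averaged 2.24 FPKM at pH 6.3 and 0.139 FPKM at pH 7.4. It passed the filter on the mean only through its acidic libraries, so it had to differ, and its call and the count that holds it are a description only. FOS averaged 6.42 ± 2.04 FPKM at pH 6.3 and 1.92 ± 0.668 FPKM at pH 7.4 (1.32, SE 0.133, adjusted p = 1.09e-06, higher at 13 of 13 times). NR4A1 averaged 15.2 ± 5.15 FPKM at pH 6.3 and 5.79 ± 3.85 FPKM at pH 7.4 (1.36, SE 0.238, adjusted p = 0.000151, higher at 12 times). MCL1, like FOSB named after its values were seen, averaged 145 ± 54.6 FPKM at pH 6.3 and 86.9 ± 8.68 FPKM at pH 7.4 (0.65, adjusted p = 0.000603, higher at 13 of 13 times). The 3 that did not pass were EGR1, JUNB and IER2. EGR1 was lower at pH 6.3 at 9 of 13 times (-0.43, adjusted p = 0.409 by limma). Its mean was higher there, with 11.9 ± 19.2 FPKM at pH 6.3 (highest value 74.6) and 10.7 ± 4.69 FPKM at pH 7.4 (highest value 19.7). JUNB (0.38, adjusted p = 0.285) was higher at 7 times and IER2 (0.26, adjusted p = 0.0806) at 9. Whether these genes differed from the contractile members was not tested.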

How the data were processed

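Polyadenylated RNA of 13 acidic and 13 neutral libraries had been sequenced with a stranded kit, per the labels' protocols. The authors deposited 1 table of FPKM values with 19806 rows. The submitters' processing notes name STAR, Cufflinks and the build hg38. For their versions, the annotation and the strand setting, the sources used here give nothing.

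Of 101 symbols on more than 1 row the row with the highest mean was kept, which gave 19704 genes. Values were used as log2(FPKM + 1), which understates changes of low genes, for the 11838 genes whose mean reached 1 FPKM. Tests used limma 3.58.1 (R 4.3.3) with moderated variances that follow the mean and a Benjamini-Hochberg threshold of 0.05. The acid effect was blocked by time point, as the media were harvested side by side at each time, per the labels' protocols. The neutral trend used the 13 neutral libraries. The neutral 24 h rhythm was fitted in 1 model of all 26 libraries, so its spread was estimated from both media together. FPKM are not counts, so no count test was used. The steps between low values of 1808 genes with 1 transcript of at least 1000 bases gave an estimate of depth, where 87.7% to 94.4% of values lay within 0.1 of a whole fragment. Summed FPKM ran from 600505 to 700273, and no libraries were identical. Coordinates and GC content came from GENCODE 29. The fits were checked on simulated data, in which each gene was drawn independently, without shared effects of time point, plate set or GC content. That check therefore cannot show how the fits behave under such effects.

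The members, the lists and the tests were chosen with earlier results of these data known. Named genes were the members, up to 2 of the largest increases and decreases per list that averaged 5 FPKM or more in either medium, 10 genes always named and 3 genes nearest to each of ACTB, TAGLN and SRF, of which 1 is not reported here. The alternatives were other pseudocounts and filters, quantile and upper-quartile scaling, no block, leaving out time points, and a correction for GC content that was chosen after seeing the data.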

Additional observations from a re-analysis of the deposited data

Results flagged for a closer look

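In 5 of the 25 named list genes, none of them a member, the acid effect over 28 to 52 h differed from that over 4 to 24 h by limma's interaction of pH and plate set. Of all tested genes 17.1% did, so 5 of 25 is near the background. The 25 were those named by rule. Some list genes named for other reasons also passed this interaction test. In the pathway lists they were MYH9 (-0.87, adjusted p = 0.0175), MYL12A (-0.73, 0.0135), MYL12B (-0.45, 0.0325), MCL1 (-0.75, 0.0178) and FOSB (1.255, 0.00663). Among the cell type markers they were VIM (-0.51, 0.00581), THY1 (-1.27, 0.0315) and LCP1 (-1.32, 0.00198). VIM was higher over 4 to 24 h (0.35, adjusted p = 0.00849 by limma) and did not pass over 28 to 52 h (-0.16, 0.121). MYH10, MYL6, EGR1, JUNB, IER2 and CSRP1 did not pass the interaction test. The markers FN1, COL1A1, EPCAM, KRT8 and CLDN4 did not pass it either. The value of FOSB is a description only, for the reason given above. The plate set and the time in medium cannot be told apart there. CNN3 had a log2 difference, pH 6.3 minus pH 7.4, of -1.17 over 28 to 52 h and 0.10 over 4 to 24 h, a change of -1.26 (adjusted p = 0.00148). MYLK had -1.61 over 28 to 52 h and -0.72 over 4 to 24 h, a change of -0.90 (adjusted p = 0.027). CFL1 had -0.92 over 28 to 52 h and -0.21 over 4 to 24 h, a change of -0.71 (adjusted p = 0.0339). GSN had -2.04 over 28 to 52 h and -0.74 over 4 to 24 h, a change of -1.30 (adjusted p = 0.0469). ARPC3 went the other way, with 0.71 over 28 to 52 h and -0.14 over 4 to 24 h, a change of 0.86 (adjusted p = 0.000969).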

How the results depend on the processing

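The acid effect called 7066 genes with the time point as a block and 7177 with no replicate block, and 6607 to 7375 when each time point was left out. For the neutral trend (2499 genes) that range was 1829 to 3125, and with the plate set as a covariate 4 genes were called. Without a filter on low values the acid effect over 4 to 24 h called 1554 genes, against 3156. With the GC correction the difference between the plate sets was called in 3121 genes, against 2025. The rhythm was called in 3 genes without the 6 libraries, against 5, and the immediate early list had 2 calls with a mean of at least 5 FPKM, against 4. That filter removed FOS and FOSB, whose means over all 26 libraries were lower. The slope of VCL at pH 7.4 turned to 0.022 with quantile normalization, 0.014 with upper-quartile scaling and 0.010 without the 6 libraries, and ran from -0.11 to 0.072 when each library was left out. The difference of ACTA2 turned to 0.15 and 0.059 with quantile normalization and the GC correction, and that of RHOA to 0.034 with the GC correction. Without a filter on low values the acid calls on FLNC, RHOB, ARPC3 and ACTN1 were lost (limma, adjusted p = 0.0531 to 0.0693), where more genes were tested. The cause of the other changes was not tested. All 210 alternative values of the members' acid difference moved by less than 1 SD of their 13 differences. Leaving out 1 of 13 time points cannot move a mean that far, and the filters and the missing block leave it unchanged. Those settings therefore had to stay within this limit. The limit also does not cover the sign, which turned for ACTG1 and TPM2 with quantile normalization. It turned for TPM2 and SRF without the 6 time points.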
